A study of Mus musculus with 127 samples.

Results

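The genes described here encode the nuclear-encoded subunits of the oxidative phosphorylation complexes. They were taken from the annotation of the deposited count tables by symbol: Ndufa, Ndufb, Ndufc, Ndufs and Ndufv genes for complex I, Sdha to Sdhd for complex II, Uqcr genes and Cyc1 for complex III, Cox4 to Cox8 genes for complex IV and Atp5 genes for complex V. Genes named as pseudogenes (a symbol that starts with Gm or holds -ps) were left out, but Cox6c2, which the rule keeps by its symbol, is annotated as a processed pseudogene. The rule found 86 gene identifiers of 54838, with 36 in complex I, 4 in complex II, 9 in complex III, 19 in complex IV and 18 in complex V. They carry 85 symbols, because Atp5o has 2 identifiers, the second of which had no read in any library. Ndufa4 is counted with complex I by its symbol, although its protein is now placed in complex IV. No measured value entered the choice, but the genes were proposed with earlier results of these data in view.

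The study measured polyadenylated RNA in the cortex of mice carrying mutations of Chd8, which encodes a chromatin remodeller. Here 123 libraries are described. Mice of the germline line carried a 5-base deletion in 1 Chd8 allele (labelled Chd8+/-, called HET below) and were compared with wild-type (WT) littermates, both sexes, at about 60 days of age. Whole cortex gave 15 WT and 16 HET libraries, the nuclear fraction 12 and 9, the synaptic fraction 11 and 7, and the cytosolic fraction 5 and 7. In the conditional line the Cre recombinase is driven by Camk2a, a gene of forebrain excitatory neurons, so that the floxed allele is deleted in only some cells of the tissue. Mice of the conditional line were also of both sexes and about 60 days of age. Conditional whole cortex gave 8 libraries from Chd8+/flox mice without Cre and 6 from Camk2a-CRE Chd8+/flox mice. In the conditional fractions every animal carried Camk2a-CRE, the WT controls included. They comprised 4 Chd8+/+ (WT), 6 Chd8+/flox (HET) and 3 Chd8flox/flox (HOM) nuclear libraries, and 4, 5 and 5 synaptic libraries. The group sizes the protocol states for conditional cortex differ from the sample titles, and the titles were followed. Cells of the cortex were not sorted, so that in every library fewer cells of a type and less RNA per cell cannot be told apart.

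Oxidative phosphorylation takes place in the inner mitochondrial membrane. Complex I (NADH dehydrogenase) and complex II (succinate dehydrogenase) pass electrons to ubiquinone, complex III passes them on to cytochrome c, and complex IV (cytochrome c oxidase) passes them to oxygen. Complex V uses the resulting proton gradient to make ATP. Complexes I, III, IV and V combine nuclear-encoded subunits with subunits encoded by mitochondrial DNA, whereas complex II is encoded in the nucleus alone. Neurons depend heavily on this pathway, and mitochondria are found in axon terminals and dendrites as well as in the soma. Several complex IV subunits exist as a widely expressed isoform and a second isoform known from muscle, lung or testis.

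Depth ranged from 19001521 to 56579360 gene counts per library in 109 libraries and from 98112666 to 134594327 in the 14 of conditional cortex. Chd8 itself stood at 93.2 ± 13.8 counts per 1000000 gene counts (CPM; SD, n = 15) in germline WT cortex and 62.03 ± 11.9 (n = 16) in HET cortex. Its log2 fold change there was -0.58 (edgeR quasi-likelihood test, adjusted p = 7.89e-05). In the other genotype comparisons Chd8 missed an adjusted p of 0.05. Its log2 fold change was -0.011 in the germline nuclear, -0.82 in the germline synaptic (adjusted p = 0.308) and -0.43 in the germline cytosolic fraction. In conditional cortex it was -0.52. The conditional HET libraries gave -0.056 in the nuclear and -0.21 in the synaptic fraction, and the HOM libraries -0.47 and -0.57. The synaptic libraries of germline WT male replicates 1 and 2, from the animals named 12M and 13M, stood apart. Their summed level of 8 nuclear-retained RNAs, such as Malat1, was 31600 and 33130 CPM, against 481.6 to 3340 CPM in the other synaptic libraries of animals with both fractions. The nuclear library of WT male replicate 7 (animal 29M) and that of HET female replicate 4 went against their sex labels, and the 2 libraries of conditional animal 91 carry different genotype labels, HET for the nuclear and HOM for the synaptic one. Results are given with and without these animals where they moved.

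In germline WT cortex the members together took 0.764 ± 0.072% of gene counts (SD, n = 15), and 0.586 ± 0.076% in the nuclear fraction (n = 12). The cytosolic fraction held 0.892 ± 0.048% (n = 5) and the synaptic fraction 0.732 ± 0.236% (n = 11). The synaptic libraries spread most among the germline groups, from 0.481 to 1.204%, and WT female replicates 4 and 5 were the highest. Both carry the same batch label as HET female replicate 3, the highest synaptic HET library at 0.927%. Conditional fraction libraries were closer together, with 0.591 ± 0.050% in WT nuclear (n = 4) and 0.571 ± 0.025% in WT synaptic libraries (n = 4). Conditional cortex spread from 0.867 to 2.24% over its 14 libraries. Complex V took 35.3% of the members' counts in germline WT cortex, complex I 27.2%, complex IV 19.1%, complex III 11.2% and complex II 7.37%. This order of complexes was the same in the nuclear, synaptic and cytosolic WT means. Complex IV took a larger part in the nuclear (24.1%) and synaptic (25.1%) fractions than in the cytosolic one (16.7%), where complex V reached 37.7%.

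**Figure D1:**
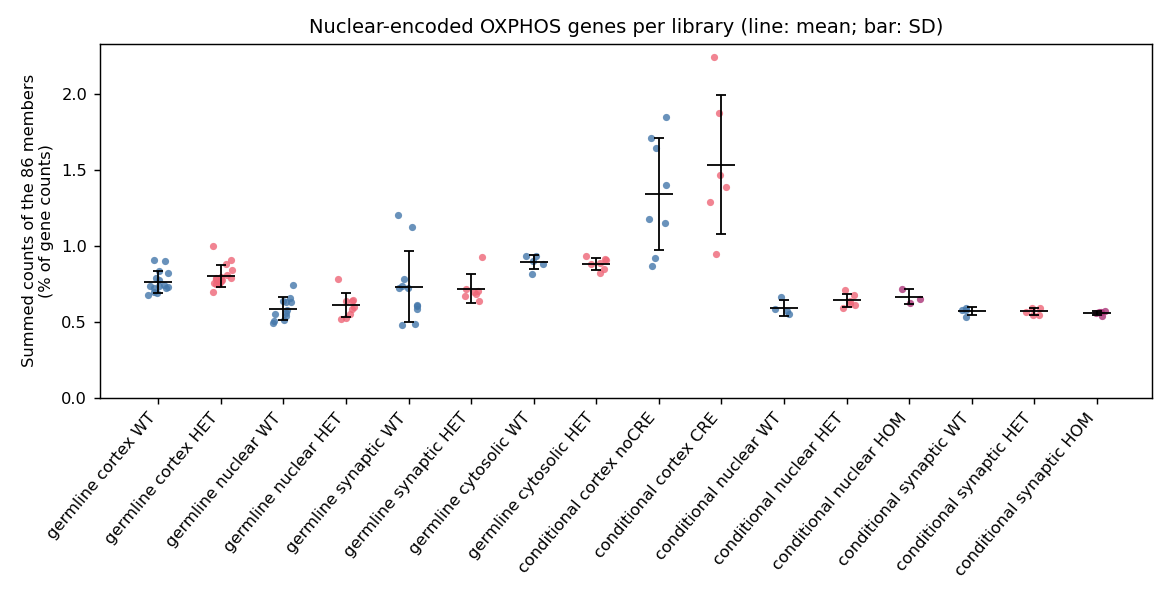
Summed level of the members in each library, as a percent of gene counts (y axis), by experiment and genotype (x axis). Points are libraries, lines are group means and bars the SD; the conditional cortex libraries spread from 0.867 to 2.24%, while the conditional synaptic libraries lie close together.

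Per kilobase of counted exon, Cox8a, a small subunit of complex IV, had the highest mean of the members in germline WT cortex with 463.8 ± 70.8 CPM per kb (SD, n = 15). Cox6a1, another complex IV subunit, followed with 297.8 ± 45.4. Next came Atp5a1 with 205.4 and Atp5b with 192.9 CPM per kb, which encode the alpha and beta subunits of the catalytic head of complex V. Cox4i1, the regulatory subunit of complex IV, stood at 171.6 and Cox6b1 at 147.0 CPM per kb. The same 6 genes had the highest means in nuclear, synaptic and cytosolic WT libraries, with Cox8a first in each. In the synaptic fraction Cox8a stood at 692.3 ± 318.2 CPM per kb (n = 11) and Cox6a1 at 546.9 ± 307. Both were measured in the same libraries, so these SDs are not the spread of their difference, which was not tested. In the cytosolic fraction Atp5a1 (251.1 CPM per kb) and Atp5b (250.6) came ahead of Cox6a1 (218.4). At the other end, outside the alternative isoforms, Ndufb2 stood at 2.45 and Atp5l at 3.68 CPM per kb in WT cortex. Ndufb2 is counted over 5628 bases, beside 4371 in its principal transcript, and 7.94% of its counted bases lie on other genes. The counted length of Atp5l is over 3 times that of its principal transcript, which lowers a value per kb, and 13 members have such a length.

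The alternative complex IV isoforms were low throughout. Cox4i2, Cox6a2, Cox6b2, Cox7a1, Cox7b2, Cox8b and Cox8c had a mean under 8 CPM in every group, and Cox8c had 10 reads in 1 germline nuclear WT library and none elsewhere. Cox4i2, the isoform best known from lung, made up 4.06 ± 1.44% of the Cox4i1 and Cox4i2 level per kb in germline WT nuclear libraries (SD, n = 12). It made up 0.609 ± 0.525% in synaptic (n = 11), 1.15% in cortex and 0.538% in cytosolic WT libraries. Cox6b2, the testis isoform of Cox6b1, showed a like order with 3.50 ± 1.83% in nuclear and 0.752 ± 0.698% in synaptic WT libraries. Cox6a2, the heart and skeletal muscle isoform, was 1.17% of its pair in nuclear, 1.41% in synaptic, 2.68% in cortex and 3.32% in cytosolic libraries, so its highest part was outside the nuclear fraction. Cox7a1, the muscle isoform of Cox7a2, was 4.24% in nuclear and 1.99% in synaptic libraries. The pseudogene Cox6c2 was also under 8 CPM in every group. Reads from it and from Cox6c may be hard to tell apart, so its share of their level per kb (7.67 ± 3.82% in nuclear WT, n = 12, and 9.86 ± 3.53% in synaptic WT libraries, n = 11) is uncertain. The 3 genes for subunit c of complex V were shared more evenly: per kb, Atp5g1 made up 25.1 ± 1.36% of its sum with Atp5g3 in WT cortex (n = 15), and Atp5g2 34.4 ± 2.55%. These shares depend on the counted lengths, which are 4912 bases for Atp5g1, 1675 for Atp5g2 and 2181 for Atp5g3.

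**Figure D2:**
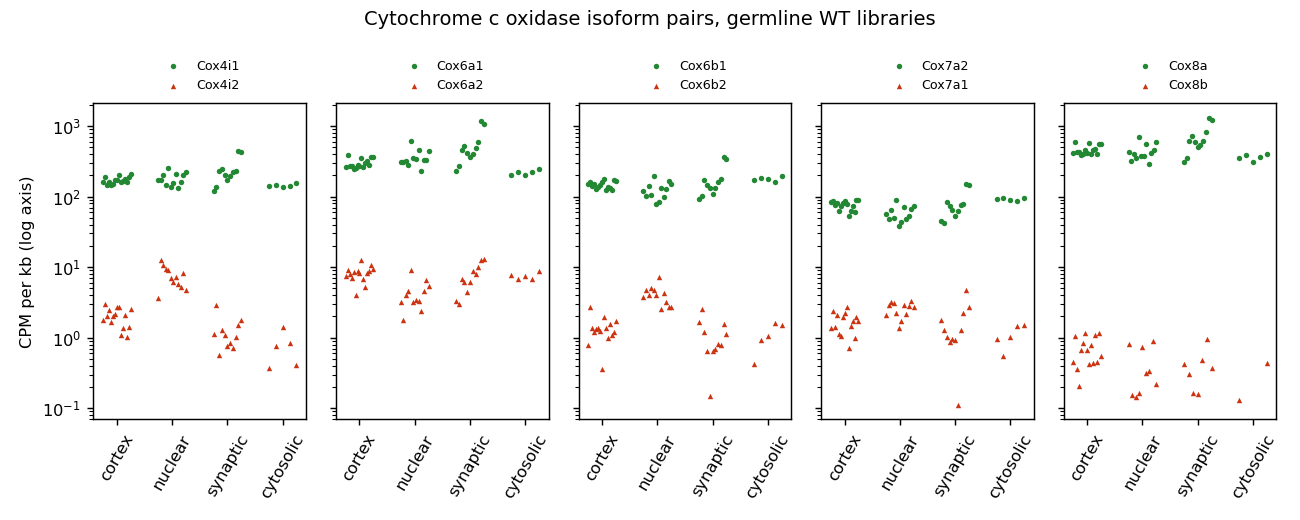
Level per kb on a log axis (CPM per kb, y axis) of the wide and the alternative isoform of complex IV subunits in each germline WT library, by fraction (x axis); libraries at 0 are not drawn. The alternative isoforms Cox4i2, Cox6b2 and Cox7a1 are a larger part of their pair in nuclear than in synaptic libraries, with mean shares for Cox4i2 of 4.06% and 0.609%.

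The start regions of the members are shown because Nrf1, GABP and YY1 are known regulators of respiratory chain genes. Whether they bear on the differences between fractions was not tested. RefSeq windows of 300 bases (250 before and 50 after a gene's start, GRCm38.p6) were held for 66 of the 85 symbols. Among those with no window were Atp5a1, Atp5f1, Atp5mpl, Atp5s, Cox4i1, Cox4i2, Cox6a2, Cox6c, Cox6c2, Cox8c, Cyc1, Ndufa2, Ndufb9, Ndufs1, Sdhc, Uqcrb, Uqcrc2 and Uqcrq. In the windows printed here, capitals mark matches on either strand to TGCGCA (the Nrf1 core, its own reverse complement), CCGGAAG or CTTCCGG (the ETS core of GABP), AAGATGG or CCATCTT (YY1), and CCAAT or ATTGG. They come from Ndufa9 (chr6:126849095-126849394, minus strand), Ndufs8 (chr19:3912725-3913024, minus strand), Sdha (chr13:74350191-74350490, minus strand), Uqcrfs1 (chr13:30545267-30545566, minus strand), Cox8a (chr19:7217567-7217866, minus strand) and Atp5b (chr10:128083057-128083356, plus strand), which are members of the 5 complexes higher in the synaptic fraction. Ndufb2 (chr6:39592315-39592614, plus strand) and Cox6b2 (chr7:4753045-4753344, minus strand) are shown because they were lower there.
Ndufa9: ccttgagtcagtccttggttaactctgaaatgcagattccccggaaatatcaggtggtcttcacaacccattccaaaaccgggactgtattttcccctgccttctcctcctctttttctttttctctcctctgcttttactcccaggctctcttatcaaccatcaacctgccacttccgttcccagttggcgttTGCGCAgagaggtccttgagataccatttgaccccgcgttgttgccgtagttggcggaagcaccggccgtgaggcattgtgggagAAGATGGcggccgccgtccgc
Ndufs8: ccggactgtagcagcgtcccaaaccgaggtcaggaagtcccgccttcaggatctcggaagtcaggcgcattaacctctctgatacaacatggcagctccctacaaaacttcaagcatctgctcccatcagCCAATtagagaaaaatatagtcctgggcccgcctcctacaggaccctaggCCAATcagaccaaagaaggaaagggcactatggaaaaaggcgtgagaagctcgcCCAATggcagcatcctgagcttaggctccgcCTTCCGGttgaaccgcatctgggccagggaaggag
Sdha: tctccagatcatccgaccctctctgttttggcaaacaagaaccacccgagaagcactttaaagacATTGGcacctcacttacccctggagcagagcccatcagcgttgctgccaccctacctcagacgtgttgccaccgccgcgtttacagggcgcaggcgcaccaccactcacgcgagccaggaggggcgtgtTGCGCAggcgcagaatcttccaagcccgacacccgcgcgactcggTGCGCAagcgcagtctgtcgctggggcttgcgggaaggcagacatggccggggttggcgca
Uqcrfs1: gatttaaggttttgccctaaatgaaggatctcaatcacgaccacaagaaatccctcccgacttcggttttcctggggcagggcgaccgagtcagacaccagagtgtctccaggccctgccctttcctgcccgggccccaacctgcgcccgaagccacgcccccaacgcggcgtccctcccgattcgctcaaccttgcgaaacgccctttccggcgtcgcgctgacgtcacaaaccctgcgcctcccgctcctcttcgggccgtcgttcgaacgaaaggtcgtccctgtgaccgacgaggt
Cox8a: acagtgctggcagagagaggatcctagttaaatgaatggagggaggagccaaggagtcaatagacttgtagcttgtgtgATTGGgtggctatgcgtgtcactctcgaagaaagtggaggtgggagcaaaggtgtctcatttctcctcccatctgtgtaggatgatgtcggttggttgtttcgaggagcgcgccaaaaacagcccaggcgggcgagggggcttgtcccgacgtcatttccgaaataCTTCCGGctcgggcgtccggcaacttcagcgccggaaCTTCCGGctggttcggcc
Atp5b: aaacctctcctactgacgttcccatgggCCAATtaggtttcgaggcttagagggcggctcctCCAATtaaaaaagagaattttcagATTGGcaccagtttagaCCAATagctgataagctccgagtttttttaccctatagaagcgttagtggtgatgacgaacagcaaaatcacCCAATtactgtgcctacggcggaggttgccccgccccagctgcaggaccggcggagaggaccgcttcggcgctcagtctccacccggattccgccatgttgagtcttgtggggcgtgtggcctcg
Ndufb2: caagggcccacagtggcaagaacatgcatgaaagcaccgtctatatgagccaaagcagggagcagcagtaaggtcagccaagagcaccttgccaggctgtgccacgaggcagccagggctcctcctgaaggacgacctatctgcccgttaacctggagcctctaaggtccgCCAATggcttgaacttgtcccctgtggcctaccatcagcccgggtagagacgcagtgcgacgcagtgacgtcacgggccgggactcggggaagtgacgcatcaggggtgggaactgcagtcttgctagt
Cox6b2: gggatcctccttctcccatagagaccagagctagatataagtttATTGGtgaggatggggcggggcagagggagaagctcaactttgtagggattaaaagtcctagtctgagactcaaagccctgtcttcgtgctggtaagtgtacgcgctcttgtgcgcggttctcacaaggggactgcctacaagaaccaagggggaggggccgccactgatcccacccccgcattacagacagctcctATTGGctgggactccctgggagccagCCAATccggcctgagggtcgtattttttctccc

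These 8 windows differ in what they hold. Ndufa9 has 1 Nrf1 core and 1 YY1 match, the latter within the last bases of the window, and Sdha has 2 Nrf1 cores. Cox8a has 2 ETS cores and Ndufs8 has 1, whereas Atp5b has 5 CCAAT matches and none of the other motifs. Ndufb2 has 1 CCAAT match alone and Cox6b2 has 3, while the window of Uqcrfs1 holds none of these letters. Over the 66 windows TGCGCA was found in 17 members (25.8%) against 8.06% of the 27025 genes with a window and 12.5% of the genes tested between germline fractions. The ETS core was found in 15 (22.7%, against 9.12 and 15%) and the YY1 motif in 9 (13.6%, against 6.48 and 6.69%). CCAAT was found in 29 (43.9%, against 37.9 and 37.9%). A TATAAA or TTTATA match was found in 7 members (10.6%, against 14.2 and 8.07%). The members' windows held 57.3% G and C, against 53.6% in all windows, and none of these shares was tested. The median log2 difference between germline WT synaptic and nuclear libraries was 0.82 for members with TGCGCA and 0.79 for those without. It was 0.71 with and 0.79 without the ETS core, 0.84 and 0.75 for YY1, 0.84 and 0.75 for CCAAT, and 0.50 (5 members) and 0.81 for the TATA letters.

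Between the fractions of the same animals, most members were higher in the synaptic fraction of germline WT mice once library sizes were scaled by TMM, edgeR's default scaling factor. Of 82 members tested, 74 rose and 3 fell, where 29.3% of all genes tested were higher and 35.2% lower. The members' median log2 fold change was 0.80, and that of all genes was -0.137. This comparison used the 10 WT animals with both fractions, with the animal as a block. Without scaling, the median of all genes moved to -0.644, the members' median to 0.286, and 36 members rose and 8 fell. On that scale 79.27% of members and 25.07% of all genes lay above 0. The distance of the members' median from that of all genes was 0.935 with scaling and 0.930 without, so the direction of single members is relative to the other genes. Without the animals 12M and 13M, 75 members rose and 3 fell, with a median of 1.01.

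Complex I holds the core subunits that carry flavin and iron-sulfur clusters and a large set of accessory subunits. All 7 nuclear-encoded core subunits rose in germline WT synaptic libraries, with a median of 0.68. Ndufs8, an iron-sulfur subunit, stood at 22.6 CPM in the lowest, 29.5 in the median and 44.1 in the highest nuclear WT library (n = 12), and at 25.3, 39.4 and 66.97 CPM in the synaptic ones (n = 11). These ranges of Ndufs8 overlap in most synaptic libraries. Its fitted log2 fold change was 1.05 (SE 0.14, adjusted p = 8.71e-06). Ndufs1, the largest core subunit, was at 0.68 and Ndufv1, which binds NADH, at 0.43, the latter -0.077 without scaling. Among the accessory A subunits 11 of 12 rose, with a median of 0.91. Ndufa9, an accessory subunit next to the ubiquinone site, ran from 26.9 over 38.6 to 46.2 CPM in nuclear and from 37.7 over 55.7 to 72.8 CPM in synaptic libraries. The synaptic libraries of Ndufa9 within the nuclear range were those of animals 12M and 13M, and its log2 fold change was 1.10 (SE 0.12, adjusted p = 1.11e-06). Of the B and C subunits 10 rose and 1, Ndufb2, fell, and Ndufb6 had the largest difference of complex I at 1.198, though over 20% of its counted exon bases lie on another gene.

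All 4 genes of complex II rose, with a median of 0.76. Sdha, the flavoprotein that oxidizes succinate, ran from 217.8 over 244.3 to 272.9 CPM in nuclear WT and from 224.7 over 344.7 to 402.3 CPM in synaptic WT libraries. Only the synaptic libraries of WT male replicates 1, 2 and 6 lay within the nuclear range of Sdha. Its log2 fold change was 0.90, that of the iron-sulfur subunit Sdhb 0.89, and those of the membrane anchors Sdhc and Sdhd 0.62 and 0.58.

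Complex III gave 9 of 9 members higher, with a median of 0.79. Uqcrc2 (chr7:120635176-120659524, GRCm38, plus strand), a core protein of the matrix side, ran from 52.6 over 64.6 to 77.8 CPM in the 12 nuclear and from 66.6 over 104.7 to 115.7 CPM in the 11 synaptic WT libraries. Here too only animals 12M and 13M overlap the nuclear range. Uqcrc2 had the largest difference of the complex, 1.11 (SE 0.13, adjusted p = 1.86e-06). The Rieske iron-sulfur protein Uqcrfs1 was at 1.04 and cytochrome c1, encoded by Cyc1, at 0.43, the latter -0.080 without scaling. The smallest difference was that of Uqcrb (0.38, adjusted p = 0.046), a small subunit near the ubiquinone site, which missed the threshold with RLE scaling and when any of several single libraries was left out, and was -0.13 without scaling.

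In complex IV 13 of 16 tested members rose and 2 fell, and all 10 widely expressed subunits rose with a median of 0.88. Cox8a ran from 159.5 over 221.2 to 382.0 CPM in nuclear and from 167.5 over 336.6 to 714.6 CPM in synaptic WT libraries, with wide overlap and a log2 fold change of 1.19. Cox4i1 was at 0.92 and Cox6a1 at 1.09. The muscle isoform Cox6a2 had the largest difference among the members that rose, at 1.42 (SE 0.20, adjusted p = 1.31e-05). Its levels were low and overlapped, from 1.21 over 2.57 to 6.28 CPM in nuclear and from 2.03 over 4.65 to 8.94 CPM in synaptic libraries.

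In complex V 15 of 17 members rose and none fell, with a median of 0.71. The 5 subunits of the catalytic F1 head all rose, with a median of 0.91. Atp5b ran from 407.7 over 525.5 to 690.9 CPM in nuclear WT and from 444.6 over 740.9 to 1033 CPM in synaptic WT libraries. Only animals 12M and 13M overlap the nuclear range of Atp5b, and its log2 fold change was 1.00 (SE 0.15, adjusted p = 1.70e-05). The 3 subunit c genes and the 4 stalk genes also rose, with Atp5f1, a stalk subunit, highest at 1.10. Atp5s, a factor outside the enzyme's core, was at 0.075 (adjusted p = 0.568) and -0.43 without scaling, and Atp5l at -0.35 (adjusted p = 0.061).

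**Figure D3:**
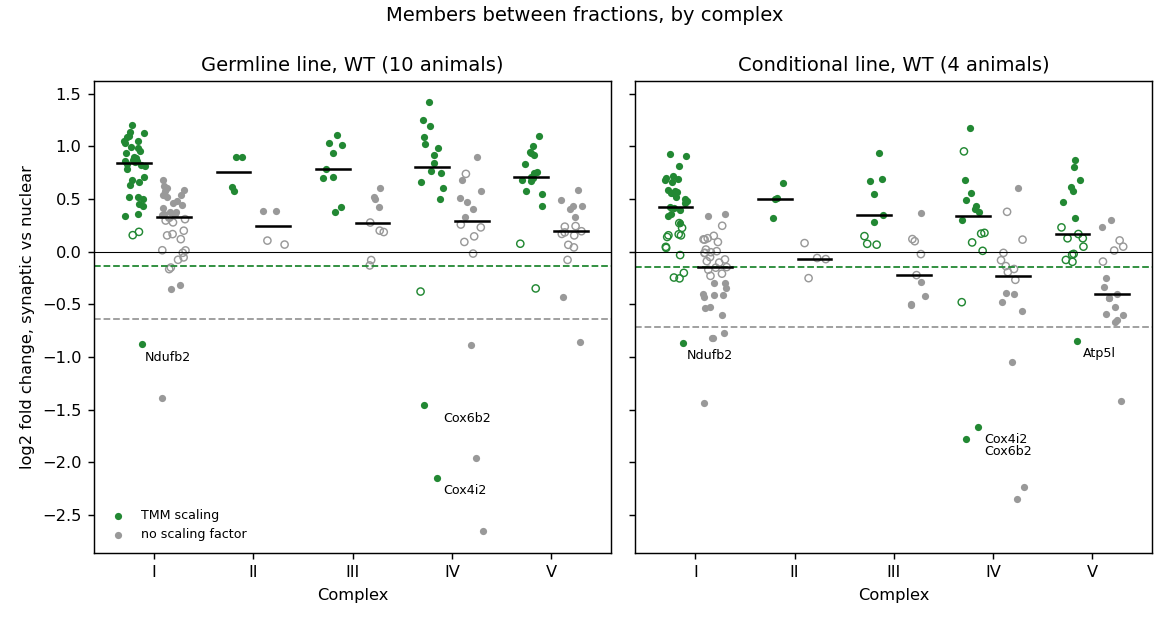
Log2 fold change of each member between synaptic and nuclear libraries (y axis) by complex (x axis) in WT animals of the germline (left) and conditional line (right), with TMM scaling in green and without scaling in grey. Filled points passed an adjusted p of 0.05, black lines are medians of the points drawn, dashed lines medians of all genes tested, and Cox8b, Cox7b2 and members under 1 CPM in every group are left out; most members lie above the dashed lines, with Cox4i2, Cox6b2 and Ndufb2 far below them in both lines.

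Few members went the other way. Cox4i2 (chr2:152754173-152765037, GRCm38, plus strand) ran from 2.90 over 5.62 to 9.88 CPM in germline nuclear WT libraries and from 0.452 over 0.867 to 2.29 CPM in synaptic ones. These ranges do not overlap, and the log2 fold change was -2.15 (SE 0.22, adjusted p = 5.98e-07). Cox6b2 ran from 2.81 over 4.47 to 7.97 CPM in nuclear and from 0.163 over 0.909 to 2.78 CPM in synaptic libraries, again with no overlap (log2 fold change -1.46, SE 0.32, adjusted p = 0.000726). Ndufb2, an accessory subunit of the complex I membrane arm (chr6:39592574-39603382, GRCm38, plus strand), ran from 17.8 over 25.1 to 32.2 CPM and from 5.55 over 8.81 to 21.4 CPM. Only the synaptic library of animal 13M reached the nuclear range of Ndufb2, and its log2 fold change was -0.88 (SE 0.11, adjusted p = 5.57e-06). Cytosolic WT libraries, from another sequencer and not tested against these, had medians of 0.602 CPM for Cox4i2 and 18.9 CPM for Ndufb2, so Cox4i2 was as low there as in the synaptic fraction and Ndufb2 lay between. Beside these genes, all 10 endothelial and mural markers, from Cldn5 to Vtn, were lower in synaptic libraries, with a median of -4.12. Their sum ran from 1344 to 3387 CPM in nuclear WT and from 91.5 to 813.9 CPM in synaptic WT libraries, with none at 0. The 8 nuclear-retained RNAs were all lower too, with a median of -2.75. Blood markers were lower in 4 of 5 in each line's WT animals. Other lists went with the members that rose: microglial markers were higher in 6 of 6 (medians 0.82 in germline and 1.26 in conditional WT). Astrocyte markers were higher in 5 of 6 and 4 of 6 (0.84 and 0.59), with 1 lower in the conditional line, and oligodendrocyte markers in 4 of 6 in each (0.58 and 0.90), with 2 lower in the conditional line. The part of these RNAs in the members' differences was not tested.

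Cytosolic levels are set beside these without a test, since those libraries are in another table and came from another sequencer. The median of the 5 cytosolic WT libraries was 172.3 CPM for Uqcrc2, 109.3 for Ndufa9 and 463.8 for Sdha, each above the highest synaptic and the highest nuclear WT library. Atp5b, with a cytosolic median of 1083 CPM, was also above its highest synaptic library. Ndufs8 differed less, with a cytosolic median of 48.5 CPM, and Cox8a had a cytosolic median of 197.2 CPM, below its nuclear median.

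Germline HET animals gave 68 members higher and 4 lower of 82, against 26.8 and 36.2% of all genes, with a median of 0.77 beside -0.191 for all genes. With 1 animal of the fit left out in turn, 48 to 72 members were higher and the median ran from 0.698 to 0.826. Without scaling 19 were higher and 8 lower, and 70.73% of members lay above 0, beside 25.11% of all genes. Uqcrc2 ran from 60.4 over 67.5 to 72.4 CPM in nuclear HET (n = 9) and from 100.9 over 105.0 to 111.6 CPM in synaptic HET libraries (n = 7), with no overlap. Ndufb2 ran from 21.2 over 24.4 to 30.6 CPM and from 5.77 over 7.45 to 8.26 CPM, also with no overlap. The lower members were Cox4i2, Cox6b2, Ndufb2 and Atp5l, the last at -0.53.

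In the conditional WT animals, 48 of 84 members were higher in the synaptic fraction and 5 lower, against 28.6 and 32.9% of all genes. The median was 0.35, beside -0.148 for all genes. With 1 animal of the fit left out in turn, 34 to 48 members were higher and the median ran from 0.282 to 0.445. Without scaling 6 were higher and 37 lower, with a median of -0.22, beside -0.714 for all genes. On that scale 26.19% of members and 22.7% of all genes lay above 0. The direction of most members in this line thus flips with the scaling, while the distance between the 2 medians was 0.502 with and 0.498 without it. Uqcrc2, Ndufc2, Ndufa9, Atp5a1, Atp5b and Cox6a2 were higher on both scales. Uqcrc2 stood at 87.5, 79.6, 103.8 and 77.5 CPM in the 4 nuclear libraries and at 104.0, 116.8, 111.1 and 115.8 CPM in the 4 synaptic ones. All 4 synaptic values of Uqcrc2 lie above all 4 nuclear values, by a small margin for the lowest, and the log2 fold change was 0.94 (SE 0.12, adjusted p = 8.60e-07). Complex II gave 4 of 4 higher (median 0.50), complex I 23 of 36 (0.42), complex III 6 of 9 (0.35), complex IV 8 of 18 (0.24) and complex V 7 of 17 (0.17). Within complex V, 4 of 5 subunits of the F1 head were higher, with a median of 0.58. None of the 4 small membrane subunits was higher, and Atp5l was lower.

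The 5 lower members included the 3 that fell in germline WT animals. Ndufb2 stood at 27.4, 26.5, 22.5 and 24.01 CPM in conditional WT nuclear and at 9.00, 9.45, 7.91 and 10.95 CPM in synaptic libraries (log2 fold change -0.86, SE 0.13, adjusted p = 9.68e-06). The groups are far apart, and the fold change is close to that in the germline line. Atp5l stood at 40.6, 36.4, 32.5 and 37.5 CPM in nuclear and at 11.3, 15.4, 12.9 and 15.8 CPM in synaptic libraries, with a log2 fold change of -0.85 (adjusted p = 8.13e-06). Cox6b2 stood at 2.72, 2.53, 1.23 and 1.38 CPM and at 0.194, 0.442, 0.523 and 0.344 CPM. Cox8b, a muscle isoform, had 22 reads over the 4 nuclear and none over the 4 synaptic libraries. The 48 members higher in conditional WT animals were all among the 74 higher in germline WT animals (64.9% of those), 3 members were lower in both, and none was called in opposite directions. With 74 of 82 members higher in germline WT, most of this overlap follows from the counts, and the overlap over all genes is not given beside it. Over the 77 members with a mean of at least 8 CPM, the 2 sets of fold changes had a Pearson r of 0.753 and a Spearman rho of 0.660, a description across genes, which are not independent and share the counted lengths. Members with a long counted length for their transcript had smaller differences: the median was 0.67 in the 13 over 3 times and 0.86 in the other 64 in germline WT, and 0.087 and 0.43 in conditional WT. How far counting over such lengths enters the fold changes was not tested.

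Conditional HET animals gave 32 members higher and 7 lower (27.9 and 32.7% of all genes), with a median of 0.18, which was 0.30 without the synaptic library of HET male replicate 1 and 0.093 without that of HET female replicate 2. HOM animals gave 17 higher and 5 lower (22.9 and 25.1%), with a median of 0.14. Without the synaptic library of HOM male replicate 2, the HOM count of higher members was 11 and the median 0.052, and without that of HOM male replicate 1 they were 13 and 0.050. Without scaling the counts were 3 higher and 51 lower in HET and 1 higher and 47 lower in HOM animals, where the medians of all genes moved to -0.700 and -0.630. On that scale 14.29% of members in HET and 13.1% in HOM lay above 0, beside 20.53 and 21.54% of all genes. The members' median lay 0.328 above that of all genes in HET with scaling and 0.323 without, and 0.250 and 0.247 above it in HOM. Averaged by animal over the 77 members, the median difference was 0.786 in germline WT (SD 0.578, n = 10) and 0.775 in germline HET animals (SD 0.219, n = 5). It was 0.388 in conditional WT (SD 0.192, n = 4), 0.205 in HET (SD 0.253, n = 5) and 0.114 in HOM animals (SD 0.108, n = 3). The values of 12M and 13M were 0.041 and -0.36, the lowest among germline WT animals, and animal 29M came next at 0.42. Without scaling the means were 0.279 and 0.173 in the germline line and -0.181, -0.356 and -0.406 in the conditional line.

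**Figure D4:**
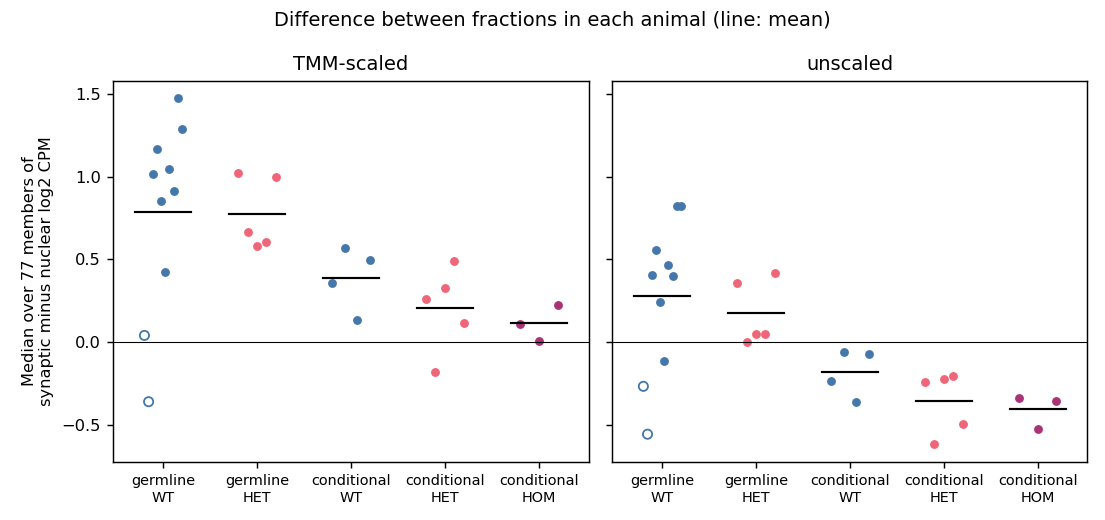
Median log2 difference of the members between the synaptic and the nuclear library of the same animal (y axis), by line and genotype (x axis), with TMM scaling (left) and without scaling (right). Each point is an animal, lines are group means, and the open circles are 12M and 13M, at 0.041 and -0.36 with scaling; the group means lie lower without scaling, below 0 in the conditional line.

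The question of the study is what loss of a Chd8 allele changes in adult cortex. In germline cortex no member passed the test (edgeR, 0 of 81, and DESeq2, 0), where 0.334% of all genes did. At an unadjusted p under 0.05 there were 12 members by edgeR (14.8%, where 9.25% of all genes were) and 10 by DESeq2. Leaving out single libraries moved that edgeR count between 8 (without HET female replicate 8 or WT female replicate 6) and 24 (without WT male replicate 8). The members' fold changes were small and mostly on 1 side: 76 of 81 were above 0 with a median of 0.078, where 49.5% of all genes were above 0 and their median was -0.00099. The median was 0.046 without HET female replicate 8. Both values are below the SD of 0.152 between libraries in the members' median level. Such SDs, here and below, describe single libraries or animals and are not the standard error of a difference between groups. Ndufs8 had the smallest p: it ran from 42.8 over 53.6 to 68.4 CPM in WT (n = 15) and from 55.1 over 60.8 to 82.2 CPM in HET cortex (n = 16). The ranges of Ndufs8 overlap widely, and the log2 fold change was 0.22 (SE 0.062, adjusted p = 0.141). In complex II Sdhb ran from 75.9 over 88.7 to 108.8 CPM in WT and from 87.5 over 97.6 to 117.5 CPM in HET cortex (log2 fold change 0.14, SE 0.050, adjusted p = 0.296). Complex medians lay between 0.067 (III) and 0.082 (V). Within the 2 batches that the labels give, the median was 0.10 (71 of 77 members above 0) and 0.057 (63 of 77). In HET cortex the 8 nuclear-retained RNAs were below WT in 8 of 8 (median -0.32), none of them called. All 4 choroid plexus markers were below WT too (median -1.29), of which Ttr was called (log2 fold change -2.99, adjusted p = 0.049). Their sum ran from 8.24 over 21.1 to 522.5 CPM in WT and from 4.67 over 10.5 to 44.3 CPM in HET cortex. The part of either list in the members' values was not tested. Of the other pathway lists, 18 of 18 tricarboxylic acid cycle genes were above 0 (median 0.050, none called) and 35 of 44 assembly factors (median 0.067). Among the latter Lyrm7, a complex III assembly factor, rose (0.27, adjusted p = 0.049). The mitochondrially encoded subunits were split, with 8 of 13 above 0 (median 0.0034). So were the transcription regulators of mitochondrial genes, with 8 of 14 above 0 (median 0.015).

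In the germline nuclear fraction no member of 82 was called by edgeR or DESeq2, where 0.0151% of all genes were, and 4 and 5 had an unadjusted p under 0.05 (7.38% of all genes by edgeR, 4.88% of members). The median was 0.099 with 72 of 82 above 0, below the SD of 0.217 between libraries. Without HET male replicate 4 it was 0.028, with 56 of 82 above 0. Without the 2 libraries against their sex label the median was 0.13 and 10 members had an unadjusted p under 0.05. Cox6b2 ran from 2.81 over 4.47 to 7.97 CPM in WT (n = 12) and from 1.43 over 2.83 to 4.41 CPM in HET nuclear libraries (n = 9), with overlap. Its log2 fold change was -0.68 (SE 0.19, adjusted p = 0.383), and it was called (adjusted p = 0.025) where no filter on low counts was used. The 3 batch groups gave medians of 0.0079, 0.14 and 0.14. All 10 endothelial and mural markers were below WT in HET nuclear libraries (median -0.38, none called), with sums from 1242 to 2361 CPM beside 1344 to 3387 CPM in WT. Markers of blood (0 of 5 above 0, median -0.21) and choroid plexus (0 of 4, -0.23) were below WT too, none called. So were those of microglia (0 of 6, -0.11) and oligodendrocytes (0 of 6, -0.061). Excitatory neuron (4 of 4 above 0), inhibitory neuron (5 of 6) and astrocyte markers (5 of 6) leaned the other way. The part of any of these lists in the value of Cox6b2 was not tested.

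In the germline synaptic fraction no member of 82 was called by either tool (0.0% of all genes), and 2 had an unadjusted p under 0.05 by each (2.44%, where 11% of all genes had by edgeR). The median was 0.091 with 68 of 82 above 0, and 0.287 without HET female replicate 4. Without animals 12M and 13M it was -0.068 with 12 of 82 above 0, and 12 members had an unadjusted p under 0.05. The direction in this fraction therefore rests on those 2 WT libraries. The 3 batch groups gave 0.55, -0.081 and 0.11, the first and last with 1 HET library each. In the cytosolic fraction no member of 82 was called (0.0%), none had an unadjusted p under 0.05 by edgeR or DESeq2 (3.28% of all genes by edgeR), and the median was -0.0076 with 36 of 82 above 0. The standard error of a cytosolic member was 0.081 in the median.

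In conditional cortex no member of 84 was called by either tool (0.0%), and none had an unadjusted p under 0.05 (3.08% of all genes by edgeR). The median was 0.19 with 82 of 84 above 0, but the SD between libraries was 0.439. The median ran from 0.070 without CRE male replicate 2 to 0.366 without CRE female replicate 2. Beside it, 7 of 8 nuclear-retained RNAs were lower in Cre libraries (median -0.67), and so were 4 of 4 excitatory neuron markers (median -0.20). The mitochondrially encoded subunits went against the members, with 1 of 13 above 0 (median -0.19). Tricarboxylic acid cycle genes (16 of 18 above 0) and assembly factors (39 of 45) went with the members. Oligodendrocyte markers were above 0 in 6 of 6 (median 0.14) and choroid plexus markers in 0 of 4 (median -0.56). No gene of these lists was called, and the part of any list was not tested.

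In the conditional nuclear fraction no member of 82 was called in HET or HOM libraries by edgeR or DESeq2, nor was any other gene (0.0% in each). In HET libraries 7 members had an unadjusted p under 0.05 by each tool (8.54%, where 4.45% of all genes had by edgeR), 17 by edgeR without animal 91. Leaving out single libraries moved that edgeR count between 1, when HET male replicate 1 was dropped or when WT female replicate 2 was, and 21 without WT female replicate 1. In HOM libraries there were 13 by edgeR (15.9%, where 11.6% of all genes had) and 15 by DESeq2, with 0 by edgeR without HOM female replicate 1 and 27 without WT female replicate 1. The medians were 0.18 in HET and 0.21 in HOM, with 76 of 82 above 0 in each. These comparisons share their 4 WT libraries. Both medians are above the SD of 0.149 between libraries, but the HET median was 0.091 without HET male replicate 1 and 0.11 without WT female replicate 2, and the HOM median 0.12 without HOM female replicate 1, below it. Uqcrfs1 stood at 46.8, 47.5, 57.4 and 66.3 CPM in WT and at 60.4, 68.2 and 76.6 CPM in HOM libraries. The groups overlap at the highest WT library, and the log2 fold change was 0.43 (SE 0.14, adjusted p = 0.426). Ndufa5, a complex I accessory subunit, stood at 29.5, 29.9, 30.3 and 35.9 CPM in WT and ran from 34.0 to 45.2 CPM in the 6 HET libraries (log2 fold change 0.37, SE 0.13, adjusted p = 0.933). Complex II had the highest HOM median, 0.34, with Sdhc at 0.39. All 10 endothelial and mural markers were lower in both genotypes (medians -0.35 and -0.76). Their sums ran from 847.3 to 2056 CPM in WT, 639.3 to 1360 in HET and 509.7 to 1273 in HOM libraries, and all 8 nuclear-retained RNAs were lower too (medians -0.13 and -0.51). Choroid plexus markers were above 0 in 1 of 4 and 0 of 4 (medians -0.49 and -0.81). On the members' side, inhibitory neuron markers were above 0 in 6 of 6 in each genotype (medians 0.25 and 0.43). Excitatory neuron markers were above 0 in 4 of 4 (0.16 and 0.31) and dendritic and synaptic RNAs in 8 of 9 (0.11 and 0.22). Glial lists lay on that side too. Oligodendrocyte markers were above 0 in 6 of 6 and 4 of 6 (0.21 and 0.20). Microglial markers were above 0 in 6 of 6 and 5 of 6 (0.17 and 0.19), and astrocyte markers in 6 of 6 and 5 of 6 (0.057 and 0.13). None of these was called, and their part was not tested.

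In the conditional synaptic fraction no member of 82 was called in HET or HOM libraries (0.0% in each) by either tool. The medians were 0.034 in HET (51 of 82 above 0) and -0.049 in HOM libraries (26 of 82), both below the SD of 0.105. The HET median was -0.0077 without HET female replicate 2 and 0.106 without WT male replicate 2, and the HOM median 0.019 without WT male replicate 2. In each comparison edgeR gave 1 member an unadjusted p under 0.05 (4.37 and 4.96% of all genes), and DESeq2 gave 2 and 1. Cox4i2 was the member in HOM: it stood at 0.411, 0.689, 0.727 and 0.786 CPM in WT and at 0.117, 0.129, 0.258, 0.394 and 0.589 CPM in HOM libraries, with overlap (log2 fold change -1.12, SE 0.48, adjusted p = 0.923).

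**Figure D5:**
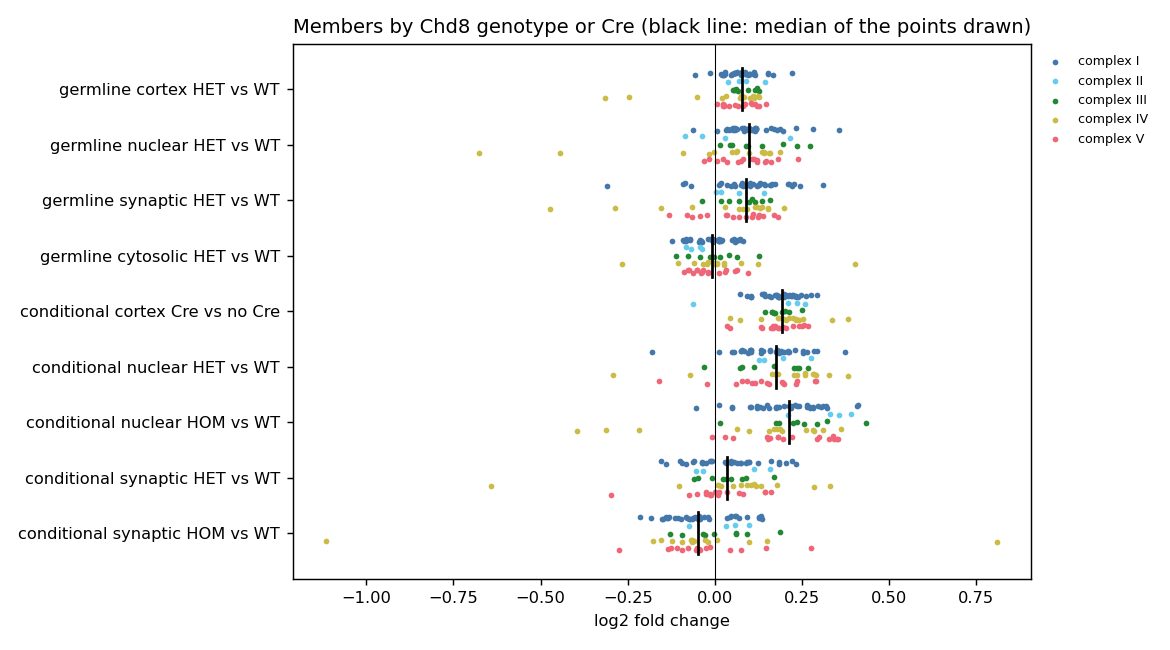
Log2 fold change of each member (x axis) in the 9 genotype or Cre comparisons (y axis) by complex (colour), with the median of the points drawn as a black line; Cox8b, Cox7b2 and Cox6c2 are left out. No member passed an adjusted p of 0.05. The medians lie above 0 in the cortex, nuclear and synaptic HET comparisons, and below 0 in the germline cytosolic and conditional synaptic HOM ones.

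Whether the synaptic to nuclear difference depends on genotype was tested directly. No member of 82 passed in the germline line (0.0% of all genes), none had an unadjusted p under 0.05 by edgeR or DESeq2 (7.21% of all genes by edgeR), and the median was -0.011. Its sign turned with single synaptic libraries, from -0.11 without WT male replicate 2 to 0.086 without WT female replicate 4. Without 12M and 13M the median was -0.22 with 4 of 82 above 0, and 8 members had an unadjusted p under 0.05. In the conditional line no member of 84 passed for HET or HOM animals (0.0% each) by either tool, with medians of -0.15 (12 of 84 above 0) and -0.23 (7 of 84). At an unadjusted p under 0.05 there were 1 member for HET by each tool, and 15 by edgeR and 13 by DESeq2 for HOM (2.89 and 4.78% of all genes by edgeR). The HOM count by edgeR was 1 without the synaptic library of WT female replicate 2 and 32 without that of WT female replicate 1. Without the synaptic library of HET male replicate 1 the HET median was -0.060. The HOM median is about as large as the SD of 0.208 between animals. Ndufa5 had a log2 difference of -0.55 in the HOM interaction (SE 0.20, adjusted p = 0.892). The lower counts of higher members in conditional HET and HOM animals than in WT animals thus come without any member that differed by this test.

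Other genes of the pathway, from lists written down with earlier results known, moved in various ways between fractions. All 13 mitochondrially encoded subunits were higher in synaptic libraries of both lines, with medians of 1.76 in germline and 1.44 in conditional WT animals. Of 18 tricarboxylic acid cycle genes 15 were higher in germline WT and 14 in conditional WT animals, where Idh2 was lower (-0.31). Assembly factors were mixed, with 25 higher and 7 lower of 45 in germline WT and 23 higher and 6 lower in conditional WT animals. The lowest was Cox17, a copper chaperone for complex IV, at -3.02 and -3.22, and Cox18 and Cox19 were lower as well (-0.94 and -0.92 in germline WT). Of 14 transcription regulators 4 were higher and 4 lower in germline WT: Esrrg (1.29) and Ppargc1a (0.76) were higher, and Gabpb1 (-1.42), Nrf1 (-1.09) and Gabpa (-0.86) were lower. Those 4 of 14 each way are near the shares of all genes, 29.3% higher and 35.2% lower. Cycs, the electron carrier cytochrome c, was at 1.07 and 0.65. Ndufab1, a complex I subunit and acyl carrier protein whose symbol the rule does not take, fell by 0.66 in germline WT and by 1.24 in conditional WT animals. Ndufa4l2, a paralog of Ndufa4 found in mural cells, was at -3.79 and -3.56. Markers of dendritic and synaptic RNA were higher in 8 of 9 and 9 of 9, and the 6 inhibitory neuron markers were higher in both lines.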

How the data were processed

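Polyadenylated RNA was sequenced in paired reads of cortex and its Syn-PER and NE-PER fractions. The deposited values are raw counts per gene from 5 tables, made by the authors with featureCounts 2.0.0 after alignment with STAR 2.5.4b per the submitters' processing notes, on GRCm38. The conditional cortex table names featureCounts 1.6.0 per the file headers. No header or label states if a read pair counts once or per read. Of counts from 1 to 20, 63.0 to 80.1% were even in each library, so it is not known if depths are of reads or of fragments. No source used here gives the strand setting, so antisense neighbours cannot be separated: 29 members have exons on another gene. Of 127 labelled samples 4 were not analysed here. The members and gene lists were chosen with earlier results of these data known.

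Counts were tested with edgeR 4.0.16 (quasi-likelihood, TMM, filterByExpr, Benjamini-Hochberg over all genes tested, threshold 0.05) in R 4.3.3. Genotype fits had sex and, where the labels give more than 1, batch as covariates. The many batch labels of the germline fractions were pooled here into 3 groups by how the label begins. Synaptic and nuclear libraries of the same animals were compared with the animal as a block. Fitted fold changes are of scaled counts. CPM are counts per 1000000 gene counts, unscaled, and per kb of the deposited exon length. Named genes are fixed members by role, called members (up to 20) and the extremes of each complex. DESeq2 1.42.0, other scalings, no low-count filter, a replicate block and leaving out libraries were alternatives, and the scripts were tested on simulated data. Replicates are animals by their titles. Depth of 19001521 to 134594327 gene counts limits only the members at a few CPM.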

Additional observations from a re-analysis of the deposited data

Results flagged for a closer look

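Summed CPM were examined for a library far from the others of its group in 70 groups of values, and 8 stood out, where chance gives about 1 in 20. The sum of all members includes that of each complex, so the 8 are not independent of each other. In germline synaptic HET libraries, female replicate 3 was far above the others for complex I (2414 CPM, the next being 1875), complex III (854.6, next 696.7), complex IV (2619, next 1725), complex V (2805, next 2360) and all members (9267, next 7125). In germline nuclear HET libraries, male replicate 4 was far above for complex III (785.2 CPM, next 658.7) and all members (7779, next 6445). In conditional nuclear WT libraries, female replicate 1 was far above for complex V (2332 CPM, next 1918).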

How the results depend on the processing

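TMM scaling decided most counts between fractions. With library totals alone, a setting chosen after seeing the data, 36 members were higher and 8 lower in germline WT, and 19 higher and 8 lower in germline HET (median 0.17). In conditional WT they were 6 higher and 37 lower (median -0.22), in HET 3 and 51 (median -0.38) and in HOM 1 and 47 (median -0.38). The medians of all genes moved along, to -0.644, -0.791, -0.714, -0.700 and -0.630 in this order, so the members' distance from them changed little (0.935 to 0.930 in germline WT and 0.502 to 0.498 in conditional WT). The share of members above 0 in germline WT went from 93.9 to 79.27%, and that of all genes from 45.28 to 25.07%. Without scaling the members' share was 26.19% in conditional WT, 14.29% in HET and 13.1% in HOM, beside 22.7, 20.53 and 21.54% of all genes. Among the genes named, Ndufv1 (-0.077), Cyc1 (-0.080), Uqcrb (-0.13) and Atp5s (-0.43) changed sign in germline WT. Without any low-count filter 1 member was called in the germline nuclear fraction, Cox6b2. Leaving out 1 library or animal in turn gave 71 to 74 higher members in germline WT and 48 to 72 in germline HET. In the conditional line it gave 34 to 48 in WT, 29 to 43 in HET and 11 to 20 in HOM. The replicate numbers did not pair samples: correlations of same-numbered deviations ran from -0.652 to 0.615. A replicate block left 0 members called in each genotype comparison, with medians of 0.072 in germline cortex, 0.12 in nuclear, 0.16 and 0.17 in conditional nuclear HET and HOM. Without the animal as a block, the fractions gave 74 higher and 3 lower in germline WT and 43 and 6 in conditional WT. Depth limits the alternative isoforms, at a few CPM. The cause of these dependences was not tested.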
